A study of Mus musculus with 24 samples.

Results

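Inh-Lamp5 is the label of 1 of the 3 inhibitory clusters that the study resolved in mouse ventral hippocampus by single-nucleus RNA sequencing (snRNA-seq), and the cells described here are those that carry it. They were found as the 4 count columns named Inh-Lamp5, each of which sums the nuclei of 1 library. In all, 491 of 30880 nuclei had the label, which was 1.59% of the nuclei and 15.8% of the 3103 inhibitory nuclei. The same label covered 532 of 27206 nuclei (1.96%) in the single-nucleus assay of open chromatin (snATAC-seq), where it had been carried over from the RNA clusters by the authors. Tissue came from untreated adult males of 2 inbred strains at 10 to 16 weeks of age, C57BL/6J (labelled B6) and DBA/2J (labelled DBA, here D2), and no group carried a transgene. Each strain had 2 libraries per assay, each from about 2 animals, and nuclei were sorted on the neuronal antigen NeuN before snRNA-seq but not before snATAC-seq. The series of 24 samples also holds DNA methylation libraries, which were not analysed here.

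Lamp5 interneurons release GABA, the main inhibitory transmitter of the forebrain. In the hippocampus the class is known to include the neurogliaform and ivy cells, whose dense short axons inhibit nearby dendrites slowly and partly by volume transmission, and many of which make neuropeptide Y, reelin or nitric oxide. Cortical interneurons arise mainly in the caudal and medial ganglionic eminences of the embryo (CGE and MGE). The hippocampal neurogliaform and ivy family is known to draw on both, and the other inhibitory clusters of the study are named Inh-CGE and Inh-MGE.

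The 2 B6 libraries of snRNA-seq held 142 and 136 Inh-Lamp5 nuclei, and the 2 D2 libraries held 125 and 88. As a share of the inhibitory nuclei these were 16.7% (95% exact binomial interval 14.2 to 19.3) and 18% (15.3 to 20.9) in B6, and 14.1% (11.9 to 16.5) and 14.5% (11.8 to 17.6) in D2. In snATAC-seq the shares were 18.9% (16.2 to 21.8) and 19.7% (16.3 to 23.3) in B6 and 12.8% (10.9 to 14.9) and 16.8% (14.3 to 19.5) in D2. Both B6 libraries lay above both D2 libraries in each assay. In snATAC-seq the interval of D2 library 2 overlapped neither B6 interval, and each of the other pairs of a B6 and a D2 library overlapped. The intervals cover counting error only, the smallest p that an exact permutation test of 2 against 2 libraries can give is 0.33, and no test was made. The summed Inh-Lamp5 counts per library ran from 747867 to 1152849 in snRNA-seq and from 1538594 to 2153009 in snATAC-seq.

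Levels are given below as CPM (counts scaled to a sum of 1e6 per library) over the 24691 gene symbols that were counted in both strains, first for the 2 B6 and then for the 2 D2 libraries. Values of other cell types are sums over both libraries of a strain. Because the clusters had been made from these same counts, levels that set Inh-Lamp5 apart from other cell types are a description and were not tested.

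Lamp5, which encodes a lysosome-associated membrane protein found at inhibitory synapses, stood at 218 and 215 CPM in B6 and at 255 and 366 in D2. The gene lies on chr2:136052239-136069917 (build mm10, plus strand). It was at 16.3 and 12.5 CPM in Inh-CGE and at 4.42 and 2.10 in Inh-MGE, and the highest value among the other 16 cell types was 30.7 in the excitatory cluster Exc-Cdh12 of D2. Every Inh-Lamp5 library therefore lay above every other cell type for the gene that names the cluster.

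Id2, an inhibitor of DNA binding by helix-loop-helix factors, was at 73.5 and 54.2 CPM in B6 and at 64.2 and 87.4 in D2. Its values in Inh-CGE were 6.24 and 14.6, and those in Inh-MGE 4.02 and 3.6, so it separated Inh-Lamp5 from the other inhibitory clusters. Astrocytes had a similar level, at 98.7 and 70.8. Ndnf, a secreted factor, was at 126 and 131 CPM in B6 and at 157 and 230 in D2. It did not separate Inh-Lamp5 from Inh-CGE, at 112 and 130 CPM, while Inh-MGE had 5.89 and 3.0 and Cajal-Retzius cells 1214 and 514.

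**Figure D1:**
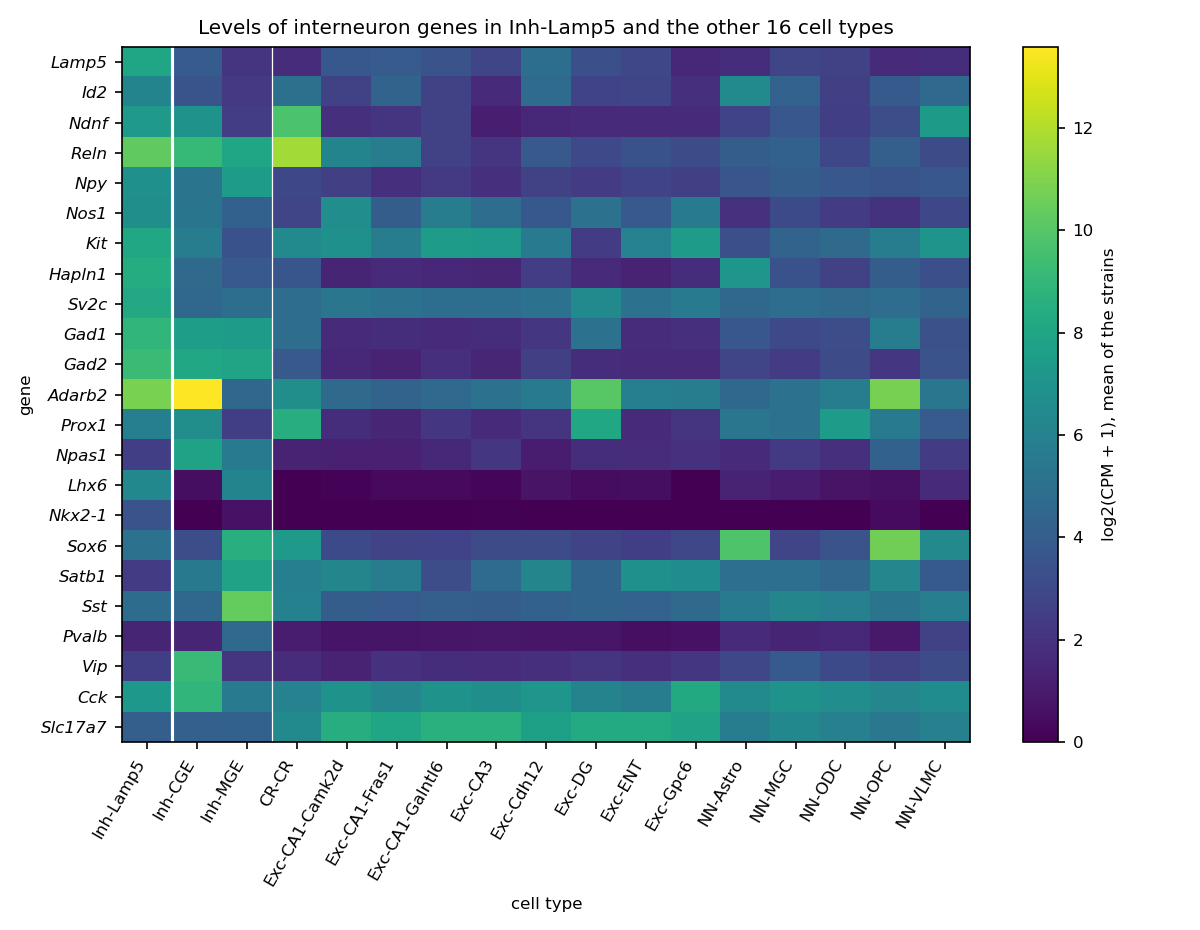
Heat map of log2(CPM + 1) for 23 interneuron genes (rows) in Inh-Lamp5 and the other 16 cell types of the snRNA-seq data (columns), each the mean of the strains. Lamp5 and Hapln1 are bright in the Inh-Lamp5 column, Lhx6 is shared with Inh-MGE and Adarb2 with Inh-CGE.

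Among 12 genes listed as markers of the class, 10 reached 20 CPM in Inh-Lamp5 or in another inhibitory cluster, and 5 of them, Lamp5, Id2, Sv2c, Kit and Hapln1, were more than 2-fold above both other inhibitory clusters in every library. The same held for 115 of 8626 symbols (1.33%) over all genes. Hapln1, a link protein of the hyaluronan matrix, was at 386, 327, 336 and 326 CPM in the 4 libraries. Its highest value in the other inhibitory clusters was 30.7. Kit, the receptor tyrosine kinase for stem cell factor, was at 259, 254, 257 and 374 CPM, against 62.9 and 42.8 in Inh-CGE and 10.6 and 8.85 in Inh-MGE. Both genes were high in all 4 libraries and lay well above the range of the neighbouring clusters.

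The peptide and nitric oxide genes of the class were less selective. Nos1, the neuronal nitric oxide synthase, was at 121 and 101 CPM in B6 and at 90.1 and 119 in D2, above the 45.5 and 30.7 of Inh-CGE and the 15.7 and 19.6 of Inh-MGE. Npy, the gene of neuropeptide Y, varied most between libraries, at 81.7, 35.0, 107 and 227 CPM, and Inh-MGE had 132 and 219. Reln, which encodes the secreted protein reelin, was at 965 and 1025 CPM in B6 and at 1275 and 1642 in D2, above both inhibitory clusters and below Cajal-Retzius cells, which had 4602 and 2030. Cplx3, a complexin, was low at 16.3, 10.5, 4.94 and 6.94 CPM, yet no Inh-CGE or Inh-MGE sum passed 0.768. Egln3 had no count in any Inh-Lamp5 library, and 3 counts, the limit that a count of 0 allows, would be 4.16 CPM in the shallowest library.

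Genes for making and packaging GABA were present in every library. Gad1, which encodes a GABA-synthesizing decarboxylase, was at 466, 551, 482 and 499 CPM, against 199 and 174 in Inh-CGE and 181 and 176 in Inh-MGE. Gad2, the gene of the other such enzyme, was at 560, 577, 648 and 700 CPM, against at most 281. Every library thus lay above the other inhibitory clusters for both enzymes. Slc32a1, the vesicular GABA transporter gene, was at 92.9, 69.9, 72.8 and 95.7 CPM, inside the range of the other inhibitory clusters. Erbb4, a neuregulin receptor gene, was at 11683 and 11495 CPM in B6 and at 11079 and 10665 in D2, against 5138 to 6585 in the inhibitory neighbours.

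Transcription factors of both embryonic sources were found together. Lhx6, which marks interneurons of the MGE, was at 63.3 and 76.9 CPM in B6 and at 115 and 70.7 in D2. That was the level of Inh-MGE, at 59.8 and 79.5, while Inh-CGE had 0.542 and 0.256. Nkx2-1, the MGE patterning factor that acts upstream of Lhx6 in the embryo, was at 3.06, 5.24, 12.3 and 19.4 CPM. These were only 3, 6, 10 and 14 counts, and no other cell type of either strain reached the lowest CPM value. Sox6 and Satb1, which act downstream of Lhx6, were instead low. Sox6 was at 31.6, 22.7, 40.7 and 33.3 CPM against 387 and 374 in Inh-MGE, and Satb1 was at no more than 6.17 CPM against 255 and 204.

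Adarb2, a gene of RNA-editing enzyme ancestry that marks interneurons of the CGE, was at 1807, 1614, 1629 and 2423 CPM. This lay between Inh-CGE, at 12118 and 12438, and Inh-MGE, at 31.7 and 11.7. The gene was not limited to interneurons. Oligodendrocyte precursors (NN-OPC) had a similar level, at 1842 and 1666 CPM, and the dentate gyrus cluster Exc-DG had 1222 and 891. Prox1, a homeobox gene of CGE interneurons, was at 64.3, 49.8, 60.5 and 51.3 CPM, against 120 and 84.5 in Inh-CGE and 5.49 and 4.05 in Inh-MGE. Npas1, also known from this source, was nearly absent, at 3.06 to 7.40 CPM against 174 and 271 in Inh-CGE. Since each value is a sum over 88 to 142 nuclei, the data do not say whether Lhx6 and Adarb2 were in the same nuclei.

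Markers of the other interneuron classes were low. Sst, the somatostatin gene, was at 44.9, 25.4, 23.4 and 12.5 CPM against 1046 and 1609 in Inh-MGE. Vip, the vasoactive intestinal peptide gene, was at 2.62 to 9.71 CPM against 530 and 612 in Inh-CGE, and Pvalb, the parvalbumin gene, was at no more than 3.06. Chodl and Chat had no count in the 4 libraries. Cck, the cholecystokinin gene, was the exception, at 91.9, 61.2, 213 and 244 CPM, below the 279 and 705 of Inh-CGE and above the 44.4 and 49.5 of Inh-MGE.

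**Figure D2:**
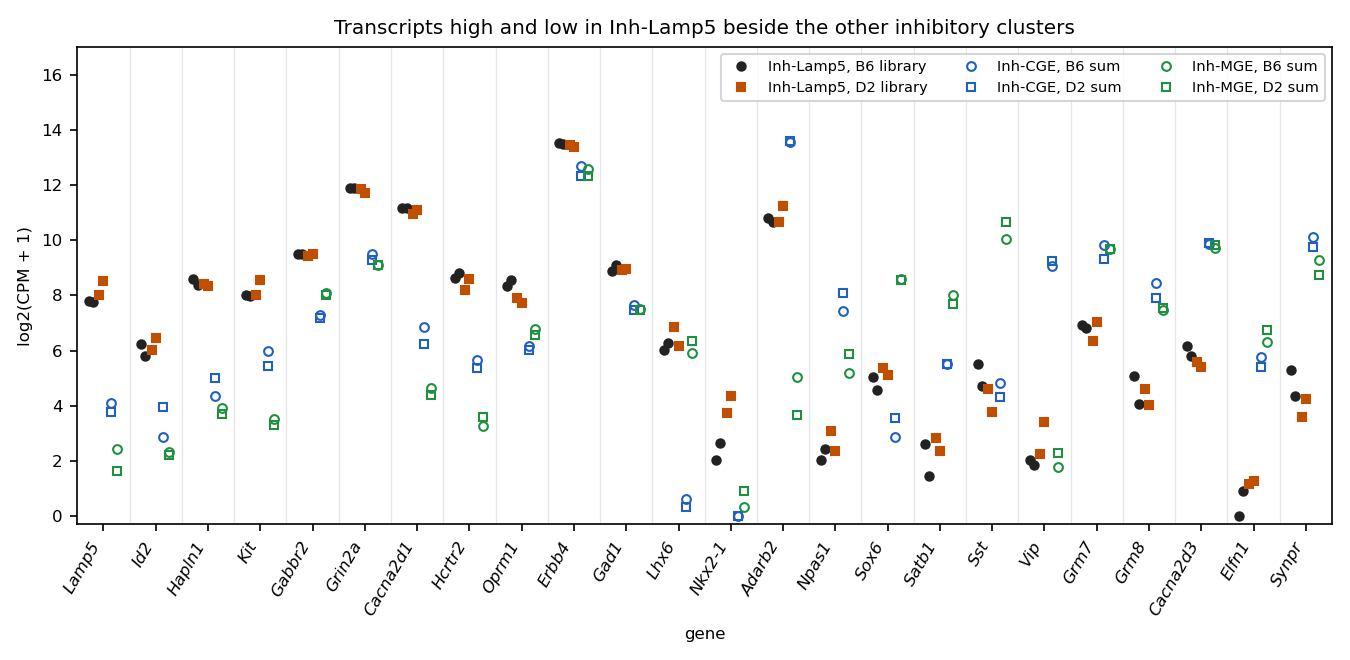
Levels of 24 transcripts as log2(CPM + 1), with 1 filled point per Inh-Lamp5 library (black circles B6, orange squares D2) and open points for the strain sums of Inh-CGE (blue) and Inh-MGE (green). Lhx6 in Inh-Lamp5 lies with Inh-MGE, Adarb2 lies between the clusters, and Cacna2d3, Elfn1 and Synpr lie below both.

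Markers of cells other than interneurons were measured in the same libraries. The summed level over 6 astrocyte markers was 125 to 179 CPM, over 6 oligodendrocyte markers 71.6 to 156, over 5 microglial markers 207 to 289, and over 5 vascular markers 5.24 to 21.0. The 5 markers of oligodendrocyte precursors summed to 168 to 222 CPM, of which Vcan, a matrix proteoglycan gene, gave 219, 208, 165 and 166. Pdgfra, Cspg4, Olig1 and Olig2, which define those precursors, were at or near 0, with no value above 3.70 CPM. Slc17a7, the vesicular glutamate transporter gene of excitatory neurons, was at 11.1 to 21.9 CPM and Trp73 of Cajal-Retzius cells at 0 to 2.77.

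Over all genes, 123 of 7343 symbols (1.68%) had their lowest Inh-Lamp5 library above every other cell type of both strains, and 24 of these were over 2-fold above. Genes named here are from the 20 with the largest ratio, not all of which are given, and noncoding transcripts were among those at the top. Gm45680 and B020031H02Rik, neighbouring lincRNA genes on chr8:11945465-11948297 and chr8:11948339-12000216, were 13.4-fold and 10.4-fold above the highest other cell type in their lowest library. Lamp5 itself was 7.00-fold above. Mctp2, whose protein has calcium-binding C2 domains, was at 219, 215, 253 and 261 CPM, and Exc-Cdh12 came next with 44.1. Myo3b and Myo3a, the genes of the class III myosins, both ranked among the 20, with lowest libraries 5.12-fold and 4.31-fold above the next cell type.

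Several of the 20 genes encode signalling proteins of the membrane. Hcrtr2, the orexin receptor 2 gene, was at 395, 445, 294 and 388 CPM, against 49.1 and 39.9 in Inh-CGE and 8.70 and 10.9 in Inh-MGE. The next cell type was the entorhinal cluster Exc-ENT of D2 with 84.2. Trpc5, a cation channel gene, was at 721, 811, 775 and 674 CPM against at most 255 elsewhere. Nyap2, an adaptor of phosphoinositide 3-kinase signalling, was at 1318, 1159, 861 and 1068 CPM, and Exc-Cdh12 had 313. Pld5 was at 383, 369, 241 and 252 CPM and Dchs2, a cadherin-family gene, at 252, 204, 206 and 221. The cadherin, the channel and the receptor were each high in all 4 libraries, whereas Pld5 and Nyap2 were lower in both D2 libraries.

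At the other end, the 10 symbols lowest against both Inh-CGE and Inh-MGE were led by Elfn1, a synaptic adhesion gene whose protein recruits presynaptic glutamate receptors. It had 0 to 1.39 CPM in Inh-Lamp5 and 41.2 to 105 in the other inhibitory clusters. Synpr, which encodes the vesicle protein synaptoporin, was at 11.1 to 37.8 CPM against 430 to 1109. Cacna2d3, an auxiliary calcium channel subunit gene, was at 41.6 to 70.4 CPM against 841 to 947. Car10 stood at 12.5 to 24.5 CPM against 460 to 621, and Runx1t1, a corepressor gene, at 18.4 to 25.0 against 285 to 346. Over all genes, 151 of 8626 symbols (1.75%) had their highest Inh-Lamp5 library more than 2-fold below both.

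Within families, Inh-Lamp5 differed from its neighbours in which members it held. Among calcium channel subunits, Cacna2d1 was at 2323, 2282, 1991 and 2167 CPM against at most 114 in the other inhibitory clusters, the reverse of Cacna2d3. Among glutamate receptor genes 21 of 26 reached 20 CPM, 1 was more than 2-fold above both clusters and 4 were below. The gene above was Grin2a, an NMDA receptor subunit, at 3753, 3791, 3660 and 3387 CPM against at most 727. Those below included the metabotropic receptor genes Grm7, at 80.2 to 129 CPM against 643 to 905, and Grm8, at 15.7 to 32.7 against 175 to 344. The kainate receptor gene Grik3 was also low, at 7.87 to 13.9 CPM against 64.3 to 160, while Grik1 was at 2401 to 2723 against at most 1729.

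Of 14 GABA receptor genes at 20 CPM or more, Gabbr2 and Gabrb2 were more than 2-fold above both clusters. Gabbr2, a subunit of the metabotropic receptor for slow inhibition, was at 731, 723, 686 and 727 CPM against at most 270, and Gabrb2, a subunit of the ionotropic receptor, was at 1067, 1001, 1008 and 945 against at most 436. Neither gene varied much between the 4 libraries. Gabrd, the delta subunit gene linked to tonic inhibition, was at 27.1 to 42.9 CPM, as in Inh-MGE with 31.2 and 29.4, and was nearly absent from Inh-CGE. Of 21 modulator receptor genes at that level, Hcrtr2 was the 1 above both clusters. Chrm2, a muscarinic receptor gene, was at 6.94 to 14 CPM against 95.7 to 120, and Cnr1, the cannabinoid receptor gene, at 72.6 to 146 against 752 and 1028 in Inh-CGE.

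Some genes joined Inh-Lamp5 to 1 neighbour only. Nxph1, a neurexin ligand gene, was at 2201 to 2487 CPM, as in Inh-MGE with 2396 and 2417, against 284 and 247 in Inh-CGE. Kcnq5, a potassium channel gene, went the other way, at 916 to 1117 CPM against 1539 and 1552 in Inh-CGE and 236 and 217 in Inh-MGE. Across 7353 genes the correlation of log2(CPM + 1) with Inh-CGE was 0.869 to 0.878 and with Inh-MGE 0.850 to 0.865 over the libraries of each strain, and the next cell type, Exc-CA1-Camk2d, had at most 0.763. These are correlations across genes, which are not independent replicates. Between Inh-Lamp5 and Inh-CGE, 211 genes were more than 2-fold higher and 258 lower of 8243 (5.69%), and for Inh-MGE these were 243 and 289 of 8320 (6.39%), while the excitatory clusters ranged from 11.4% to 15.9%.

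The open chromatin of the nuclei that took the label can be set beside these transcripts. Label transfer used the RNA clusters, so that snATAC-seq is not fully independent of them, and here too levels against other cell types were not tested. Over the 94 peaks of Adarb2, from 1 kb upstream to the gene end, accessibility summed to 218, 198, 229 and 191 CPM of all peak counts in Inh-Lamp5. It lay between the 370 and 362 of Inh-CGE and the 75.7 and 69.1 of Inh-MGE, the order seen in the transcript. Over the 7 peaks of Lhx6 it was 67.6, 65.9, 74.0 and 63.6 CPM, against 23.2 and 28.9 in Inh-CGE and 85.3 and 92.4 in Inh-MGE. Sox6, with 69.3 to 92.4 CPM, lay with Inh-CGE at 69.9 and 70.7 rather than with Inh-MGE at 176 and 180.

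Accessibility by gene was summed for listed genes only, so no share over all genes can be set beside the next count. Of the 12 class marker genes, 9 were more accessible in every Inh-Lamp5 library than in either other inhibitory cluster. The exceptions were Egln3, at 21.8 to 24.4 CPM against 31.4 and 32.4 in Inh-CGE, Ndnf, at 24.3 to 40.4 against 26.4 and 26.7 in Inh-CGE, and Sv2c, whose lowest library at 118 was below the 121 of Inh-MGE in D2. Hapln1 summed to 88.4, 102, 87.1 and 92.9 CPM against at most 44.3 in the inhibitory neighbours, and astrocytes had up to 108. Nos1 summed to 133, 139, 143 and 150 CPM against at most 81.5 in the inhibitory neighbours, and Exc-CA1-Camk2d of D2 had 158. The peaks of Lamp5 gave 43.5, 47.2, 42.6 and 40.9 CPM, against 13.7 to 23.2 in the inhibitory neighbours and 34.8 in Exc-Cdh12 of B6. At Sst the only peak, at the promoter, had 0.464 to 1.71 CPM, against 13.4 and 16.2 in Inh-MGE.

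**Figure D3:**
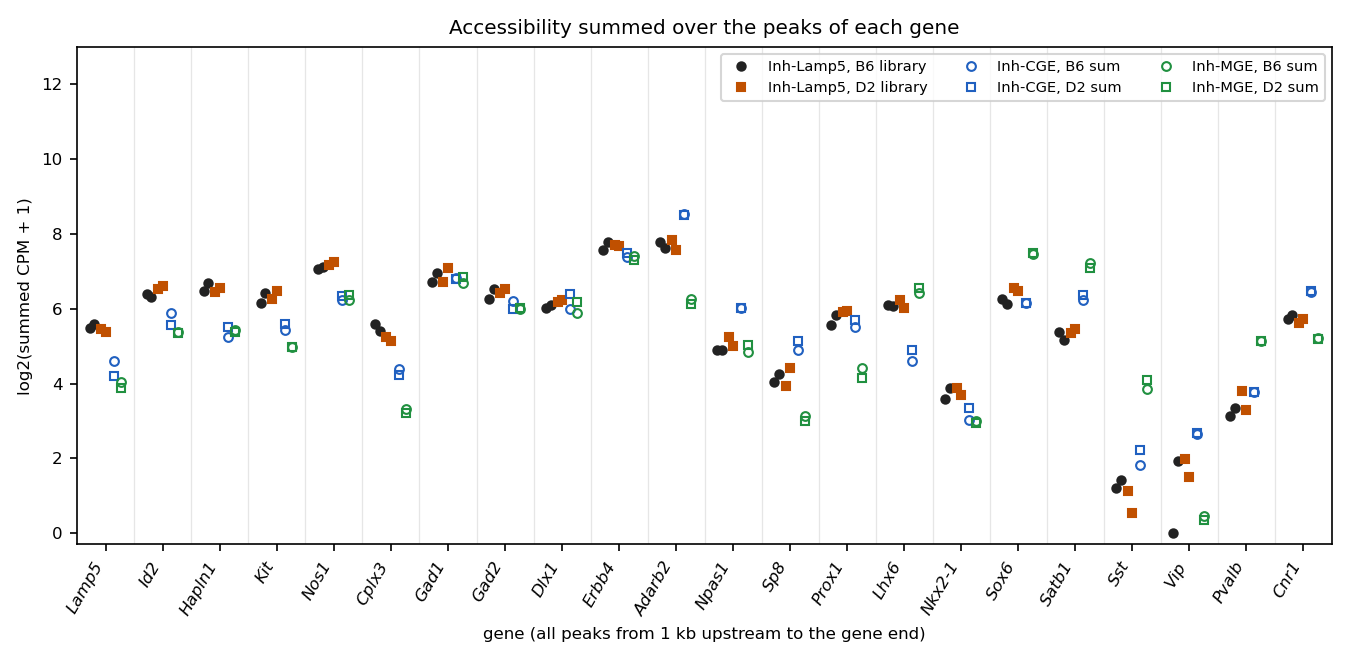
Accessibility of 22 genes as log2 of the summed CPM of all their peaks plus 1, with 1 filled point per Inh-Lamp5 library (black circles B6, orange squares D2) and open points for the strain sums of Inh-CGE (blue) and Inh-MGE (green). Adarb2 in Inh-Lamp5 lies between the clusters, and Hapln1, Kit and Nos1 lie above both.

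Of 41983 peaks with a mean of at least 5 CPM and counts in all 4 Inh-Lamp5 libraries, 375 (0.893%) were more than 2-fold more accessible in the lowest Inh-Lamp5 library than in any other cell type. The 100 with the largest ratio lay mostly far from genes, 69 intergenic, 28 in introns, 3 in exons and 0 at promoters. In a random sample of 2000 of the 41983 peaks, 31.6% lay at promoters and the same share was intergenic. Several fell near marker genes. A peak at chr13:89640242-89640701, 100675 bases past the start of Hapln1, had 11.0, 23.3, 14.8 and 14.9 CPM, against at most 2.02 in any other cell type. A peak at chr5:75755433-75756571, 181086 bases past the start of Kit, had 11.7, 17.1, 17.8 and 24.2 CPM against at most 3.67, and an intronic peak of Nos1 at chr5:117825336-117825681 had 12.4 to 14.3 against at most 3.58. A peak at chr1:80990516-80990886, at -86249 bases from the start of Nyap2, had 12.3, 15.3, 8.88 and 9.75 CPM against at most 2.12.

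The middle 300 bases of 4 such peaks are shown, from the plus strand of the B6 reference (build mm10), to let the letters of these regions be read beside their values. They are the peaks near Hapln1, Kit and Nyap2 and the best ranked peak to hold all 3 motifs in capitals, an intergenic peak at chr12:25823084-25823665 with 18.8, 20.5, 16.6 and 19.0 CPM against at most 2.86 elsewhere. Capitals mark TAATTA (a homeodomain core), TTGGCA (one arm of the nuclear factor I site) and ACAATG (a core of SOX factors) on either strand.
Hapln1 peak, chr13:89640321-89640620: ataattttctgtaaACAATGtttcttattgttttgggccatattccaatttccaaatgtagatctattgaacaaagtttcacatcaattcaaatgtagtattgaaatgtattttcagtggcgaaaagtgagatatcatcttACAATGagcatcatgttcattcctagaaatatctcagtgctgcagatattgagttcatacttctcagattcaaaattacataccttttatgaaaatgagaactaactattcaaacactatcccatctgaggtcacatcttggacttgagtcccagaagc
Kit peak, chr5:75755852-75756151: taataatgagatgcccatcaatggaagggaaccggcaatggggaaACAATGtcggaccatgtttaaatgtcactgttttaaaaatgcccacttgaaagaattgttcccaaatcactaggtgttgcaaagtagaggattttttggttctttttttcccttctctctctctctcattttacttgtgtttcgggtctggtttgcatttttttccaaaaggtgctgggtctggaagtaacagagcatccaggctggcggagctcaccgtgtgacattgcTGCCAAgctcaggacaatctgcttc
Nyap2 peak, chr1:80990551-80990850: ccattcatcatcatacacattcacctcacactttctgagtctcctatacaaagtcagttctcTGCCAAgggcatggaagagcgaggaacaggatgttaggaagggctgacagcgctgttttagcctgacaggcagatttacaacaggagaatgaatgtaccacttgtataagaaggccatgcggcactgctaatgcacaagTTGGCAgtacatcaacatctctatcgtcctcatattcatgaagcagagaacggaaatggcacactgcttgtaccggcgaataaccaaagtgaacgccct
Intergenic peak, chr12:25823224-25823523: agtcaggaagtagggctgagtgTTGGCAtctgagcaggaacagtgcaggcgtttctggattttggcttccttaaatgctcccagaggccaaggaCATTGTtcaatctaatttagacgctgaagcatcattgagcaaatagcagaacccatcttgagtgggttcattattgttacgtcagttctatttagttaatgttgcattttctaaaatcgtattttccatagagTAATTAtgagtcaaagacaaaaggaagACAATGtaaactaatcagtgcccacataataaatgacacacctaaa

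Counted over the same 300-base windows, TAATTA was in 77 of the 375 peaks (20.5%) that favoured Inh-Lamp5, against 7.17% of all 41983 peaks and 5.29% of 32851 RefSeq promoters of the same length. It was in 14% of 136 peaks that favoured Inh-CGE and in 14.2% of 664 that favoured Inh-MGE. Those sets used the same 2-fold margin on strain sums rather than on single libraries, so the sets are not fully matched. TTGGCA was in 34.9% of the Inh-Lamp5 peaks, against 16.9% for Inh-CGE, 16.0% for Inh-MGE and 18.7% of all peaks. ACAATG was in 29.1%, against 36.8% for Inh-CGE, 9.64% for Inh-MGE and 12.7% of all peaks, so for this motif Inh-Lamp5 stood nearer to Inh-CGE. TGACTCA, the site of AP-1 factors, was in 6.40%, against 18.2% for Inh-MGE. The median share of G and C was 41.7% in the Inh-Lamp5 windows, 44.3% in those of each inhibitory neighbour and 51.7% in all peaks, and its part in these shares was not tested. A match is a stretch of letters and not a bound site.

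The promoter of Lamp5 was open in every library, with 40.9, 44.9, 42.6 and 39.5 CPM over its 2 peaks, against 13.2 to 22.0 in the inhibitory neighbours and 33.0 in Exc-Cdh12 of B6. Its sequence holds none of the 3 motifs and is shown from RefSeq (GRCm38.p6, 250 bases before to 50 after the start) for the upstream start site, in lower case throughout.
Lamp5 promoter, chr2:136052089-136052388: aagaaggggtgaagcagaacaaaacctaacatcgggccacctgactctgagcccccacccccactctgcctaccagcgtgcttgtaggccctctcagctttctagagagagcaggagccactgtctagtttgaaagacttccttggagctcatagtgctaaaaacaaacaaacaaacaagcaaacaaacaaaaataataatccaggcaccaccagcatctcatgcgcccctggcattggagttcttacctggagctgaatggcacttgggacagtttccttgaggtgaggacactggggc

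The other question the design allows is what differs between the strains in these cells. It was tested on the 4 libraries across 9784 transcripts by the quasi-likelihood test of edgeR with Benjamini-Hochberg adjustment, D2 against B6, and 825 transcripts (8.43%) had an adjusted p under 0.05. Of these 309 (3.16%) were higher in D2 and 516 (5.27%) lower, and 425 differed more than 2-fold. Both D2 libraries lay on 1 side of both B6 libraries in 49.8% of all transcripts tested. The number called depended on each library, at 633 without B6 library 2, 451 without B6 library 3, 521 without D2 library 2 and 457 without D2 library 3. DESeq2 called 202. The p-values measure the spread between these few libraries. In bulk sums of nuclei, fewer cells of a kind within the cluster and less RNA per cell cannot be told apart. Of the 825 transcripts, 302 overlapped a gene symbol that was counted in 1 strain only, as did 2348 of all 9784, and without such genes 458 of 7436 were called.

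**Figure D4:**
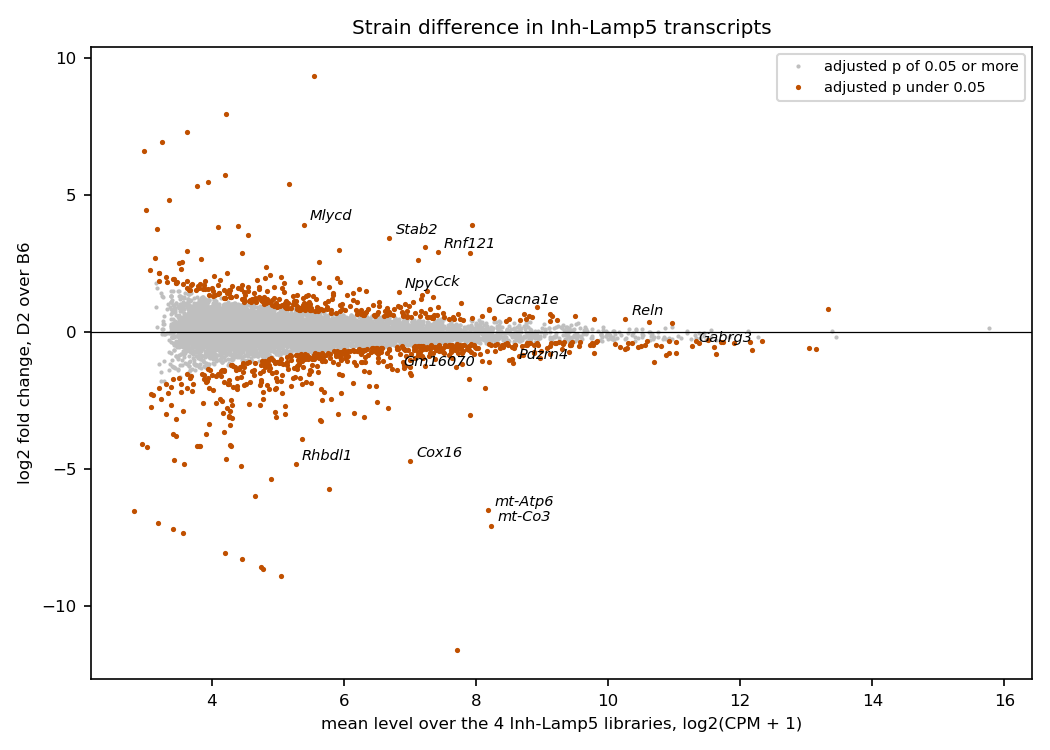
Log2 fold change of D2 over B6 in Inh-Lamp5 (vertical axis) against mean level as log2(CPM + 1) (horizontal axis) for the 9784 transcripts tested. The 825 transcripts with an adjusted p under 0.05 are coloured, and named examples run from mt-Co3 at -7.07 to Mlycd at 3.92, with unnamed points beyond both.

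Of 10 class marker genes tested, Npy, Reln, Sv2c and Ndnf were higher in D2, beside 3.16% of all transcripts, with a median log2 fold change of 0.32 against 0.0096 over all transcripts. The count was 2 without B6 library 2, 2 without D2 library 3, 3 without B6 library 3 and 5 without D2 library 2. It was 2 of 11 by DESeq2, 2 of 8 without genes overlapping a symbol of 1 strain and 1 of 7 without genes overlapping on the same strand. Sv2c, a synaptic vesicle protein gene, went from 236 and 179 CPM in B6 to 359 and 401 in D2 (log2 fold change 0.80 ± 0.14 SE, adjusted p 3.4e-05, edgeR). The strains did not overlap, and the call held under the alternatives run on it, which leave out the removal of genes overlapping on the same strand. The sums of both inhibitory neighbours differed more widely, from 4.34 to 41.5 CPM in Inh-CGE and from 5.49 to 53.5 in Inh-MGE. Reln rose from 965 and 1025 to 1275 and 1642 CPM (0.47 ± 0.11 SE, adjusted p 0.0028), but the adjusted p was 0.058 without B6 library 2 and 0.229 without D2 library 3. In Inh-CGE, Reln had 535 and 577 CPM in the strain sums and in Inh-MGE 252 and 260.

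Npy was 1.45 ± 0.23 (SE) higher on the log2 scale (adjusted p 3.9e-06), from 81.7 and 35.0 CPM to 107 and 227. The D2 library at 107 lay close to the B6 library at 81.7, and DESeq2 gave an adjusted p of 0.889. Ndnf differed by 0.50 ± 0.17 (SE, adjusted p 0.045), which did not hold without B6 library 2 (0.203), without B6 library 3 (0.178), without D2 library 3 (0.702) or by DESeq2 (0.923). Lamp5 itself was 0.43 ± 0.15 (SE) higher with an adjusted p of 0.053 and was not called. In these marker genes D2 library 3 had the highest value of the 4.

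Cck was the clearest of the peptide genes. It went from 91.9 and 61.2 CPM in B6 to 213 and 244 in D2, a log2 fold change of 1.51 ± 0.17 (SE, adjusted p 1.1e-09, edgeR), and the call held under every alternative. The strain sums were 279 and 705 CPM in Inh-CGE and 44.4 and 49.5 in Inh-MGE. Since Cck is also a marker of Inh-CGE, the other markers of that cluster were looked at in the same libraries. Vip was at 3.06 and 2.62 CPM in B6 and 3.70 and 9.71 in D2, and Npas1 at 3.06, 4.37, 7.40 and 4.16, both too low to enter the test. Cnr1 was at 89.8, 72.6, 97.5 and 146 CPM and was not called (log2 fold change 0.50, adjusted p 0.095). Their part in the Cck difference was not tested. An intergenic peak at chr9:121531885-121532307, at -36402 bases from the start of Cck, went from 0.650 and 1.14 to 7.70 and 6.5 CPM (2.84 ± 0.72 SE, adjusted p 0.029). That call was lost without any 1 library, with adjusted p of 0.302 and 0.297 without the B6 libraries and 0.286 and 0.171 without the D2 libraries, and under DESeq2.

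Among regulators, Dlx6os1, a noncoding transcript of the Dlx5 and Dlx6 locus, went from 568 and 545 to 795 and 986 CPM (0.60 ± 0.12 SE, adjusted p 2.1e-04), and this held by DESeq2 and without each library, while the alternatives without overlapping genes leave Dlx6os1 out. Dlx1 went the other way, from 60.2 and 56.8 to 33.3 and 36.1 CPM (log2 fold change -0.83 ± 0.25 SE, adjusted p 0.024). Nkx2-1 was higher in D2 by 1.78 ± 0.56 (SE, adjusted p 0.034), at the low levels given above. Nr2f1, a nuclear receptor gene of the CGE, went from 43.9 and 46.3 to 80.2 and 84.6 CPM (0.78 ± 0.22 SE, adjusted p 0.012). The calls of Dlx1, Nkx2-1 and Nr2f1 were each lost on leaving out any 1 of the 4 libraries, with adjusted p from 0.057 up to 0.178 for Dlx1, 0.584 for Nkx2-1 and 0.091 for Nr2f1, and by DESeq2, at 0.857, 0.959 and 0.772. Lhx6, Adarb2 and Prox1 were tested and not called.

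Of 20 glutamate receptor genes tested, 0 were called by edgeR and 0 by DESeq2, and 1 had an unadjusted p under 0.05 (edgeR), lower in D2. The 13 GABA receptor genes tested included 2 lower in D2, beside 5.27% of all transcripts, with a median log2 fold change of -0.25. The count lower was 1 by DESeq2 and 1 without B6 library 3 or either D2 library. Gabrg3, a gamma subunit gene, fell from 2780 and 2934 CPM in B6 to 2059 and 2146 in D2 (log2 fold change -0.52 ± 0.10 SE, adjusted p 1.3e-04). The strains did not overlap, and the call held by DESeq2 and without each library, while the alternatives without overlapping genes leave Gabrg3 out. Inh-CGE had 853 and 559 CPM and Inh-MGE 1397 and 1163.

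The 16 modulator receptor genes tested held 2 higher and 2 lower in D2, beside 3.16% and 5.27% of all transcripts. DESeq2 called 0 higher and 1 lower of 20, and without genes overlapping a symbol of 1 strain 0 of 13 were higher and 2 lower. Oprm1, the gene of the mu opioid receptor, went from 323 and 372 CPM to 238 and 212 (log2 fold change -0.70 ± 0.14 SE, adjusted p 2.7e-04), with no overlap and in every alternative. The sums of Inh-CGE, 70.2 and 63.5, and of Inh-MGE, 109 and 93.3, lay far below either strain of Inh-Lamp5. Chrna7, the gene of the alpha7 nicotinic receptor subunit, went from 93.9 and 110 to 181 and 186 CPM (0.76 ± 0.17 SE, adjusted p 8.0e-04), with an adjusted p of 0.174 by DESeq2. The serotonin receptor genes Htr2c (0.55 ± 0.17 SE) and Htr7 (-0.53 ± 0.17 SE) were called higher and lower, and each call was lost when single libraries were left out, with adjusted p up to 0.710 without D2 library 2 for Htr2c and up to 0.537 without D2 library 3 for Htr7.

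Potassium channel genes were called in both directions. Of 32 genes for potassium and HCN channels and their partners, 8 were lower in D2 and 1 was higher, beside 5.27% and 3.16% of all transcripts, with a median log2 fold change of -0.22. The number lower was 5 without B6 library 2, 4 without B6 library 3, 5 without D2 library 2 and 3 without D2 library 3, and it was 3 by DESeq2 and 4 of 21 without genes overlapping a symbol of 1 strain. Kcnj6, which encodes an inward rectifier opened by G proteins, went from 282 and 309 to 191 and 187 CPM (log2 fold change -0.72 ± 0.15 SE, adjusted p 2.7e-04). Kcnh7 went from 1625 and 1797 to 1319 and 1265 CPM (-0.48 ± 0.11 SE, adjusted p 9.9e-04). Both held under the alternatives run on them, though not all those on overlapping genes apply, as did Kcnb2, the gene that was higher, which went from 425 and 447 to 676 and 714 CPM. Kcnc2, Kcnh1, Kcnmb2, Kcnip4 and Dpp10 fell by 0.35 to 0.54 on the log2 scale, and each call was lost without D2 library 3 and without at least 1 other library, with adjusted p at its highest from 0.150 for Kcnh1 to 0.381 for Kcnip4.

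Of 21 sodium and calcium channel genes tested, Cacna1e was higher and Cacnb2 lower in D2, beside 3.16% and 5.27% of all transcripts. The call of Cacnb2 (log2 fold change -0.43, adjusted p 0.012) was lost without B6 library 3 (0.113), without D2 library 2 (0.168) and by DESeq2 (0.077), which left 0 lower. Cacna1e, the pore-forming subunit of R-type calcium channels, went from 196 and 206 CPM in B6 to 370 and 398 in D2 (log2 fold change 0.85 ± 0.14 SE, adjusted p 5.6e-06), and the call held under every alternative. The strain sums were 109 and 83.2 CPM in Inh-CGE and 87.9 and 82.9 in Inh-MGE. Those sums were a little lower in D2, and whether the strain difference itself differed between the cell types was not tested.

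Of 26 synaptic adhesion genes tested, 7 were lower and 1 higher in D2, beside 5.27% and 3.16% of all transcripts, with a median log2 fold change of -0.18. The number lower was 8 without B6 library 2, 4 without B6 library 3, 7 without D2 library 2, 3 without D2 library 3, and 3 by DESeq2. Without the genes that overlap a symbol of 1 strain, 11 were left and 2 of them were lower. Flrt2 went from 510 and 645 to 412 and 309 CPM (log2 fold change -0.76 ± 0.14 SE, adjusted p 4.3e-05) and Lrrtm4 from 5066 and 6020 to 4217 and 3158 (-0.66 ± 0.11 SE, adjusted p 5.0e-06). Both encode leucine-rich repeat proteins of synapses. Flrt2 held by DESeq2 and without each library and was left out of the alternatives without overlapping genes, while Lrrtm4 had an adjusted p of 0.318 by DESeq2.

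**Figure D5:**
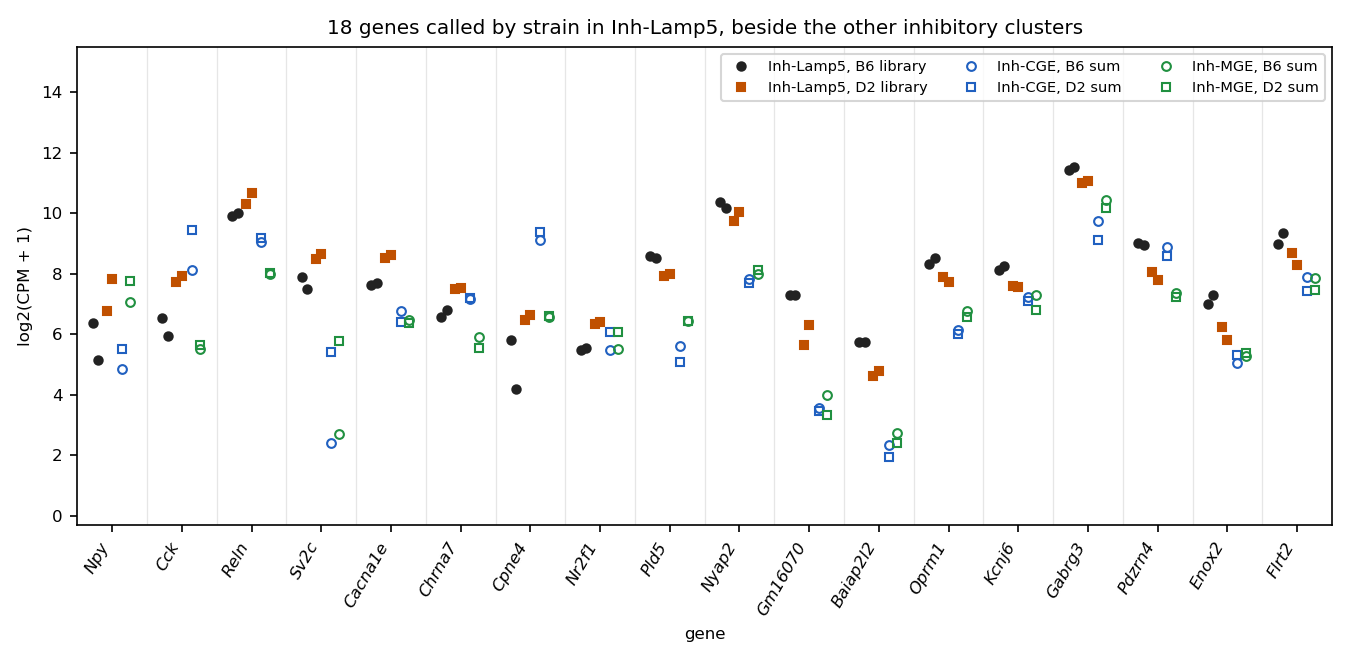
Levels of 18 genes called by strain in Inh-Lamp5 as log2(CPM + 1), with 1 filled point per Inh-Lamp5 library (black circles B6, orange squares D2) and open points for the strain sums of Inh-CGE (blue) and Inh-MGE (green). Cck, Sv2c and Cacna1e are higher in both D2 libraries, and Oprm1, Gabrg3 and Pdzrn4 are lower.

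Of the 20 transcripts that set Inh-Lamp5 apart, C87487 and Sfta3-ps were higher in D2 and Baiap2l2, Pld5, Nyap2 and Gm16070 lower. Of all transcripts tested, 3.16% were higher and 5.27% lower. Gm16070, an antisense transcript, showed the widest difference, from 158 and 157 to 49.4 and 77.7 CPM (log2 fold change -1.40 ± 0.19 SE, adjusted p 9.3e-08). Counting by strand is not stated in the study's methods, and a part of reads from a gene on the opposite strand was not tested. Pld5 went from 383 and 369 to 241 and 252 CPM (-0.69 ± 0.14 SE, adjusted p 2.1e-04), which held by DESeq2 and without each library, while the alternatives without overlapping genes leave Pld5 out. The call of Gm16070 held under every alternative. Nyap2 was lower by a smaller margin (-0.44 ± 0.11 SE, adjusted p 0.006), which was lost without B6 library 2 (0.084) and without D2 library 2 (0.189). C87487 lost its call without B6 library 2 (0.093), without B6 library 3 (0.092), without D2 library 3 (0.399) and by DESeq2 (0.892). Sfta3-ps lost it without B6 library 2 (0.074), without D2 library 2 (0.098) and by DESeq2 (0.607), and Baiap2l2 by DESeq2 (0.408). The other 14, Lamp5, Hcrtr2, Mctp2 and Trpc5 among them, were not called.

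The widest differences were in genes of other kinds. Those named here are the 10 protein-coding genes in each direction with the largest fold change among called genes that had a mean of at least 20 CPM, a count in each of the 4 libraries and no overlap of the strains. Mlycd, which encodes malonyl-CoA decarboxylase, went from 2.04 and 6.99 CPM to 70.3 and 84.6 (log2 fold change 3.92 ± 0.37 SE, adjusted p 9.9e-13). Stab2, Pisd, Cfap54, Rnf121, Hmgb1, Sfi1, Sav1, Zfp951 and Asna1 followed with log2 fold changes from 3.42 to 2.07. In the other direction the mitochondrial transcript mt-Co3 came first, from 525 and 668 to 4.94 and 4.16 CPM (-7.07 ± 0.27 SE, adjusted p 8.3e-30), and mt-Atp6 was next. Rhbdl1, Cox16, Hira, Gse1, Nt5dc3, Fam173a, mt-Co1 and Schip1 followed with log2 fold changes from -4.81 to -2.99. The rule leaves out genes with no count in both libraries of a strain, and a pair of these is named after the values were seen. mt-Co2 had 345 and 492 CPM in the B6 libraries and no count in D2. The lincRNA Gm12160 had no count in B6 but 90.1 and 94.3 CPM in the D2 libraries.

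These large differences were not limited to Inh-Lamp5. For Mlycd the log2 ratio of the strain sums was 1.56 to 3.57 over the other 16 cell types, for Rnf121 1.5 to 5.06 and for mt-Atp6 -6.77 to -5.47. Hmgb1 ranged from -0.40 to 2.18 elsewhere, and in Inh-Lamp5 it went from 48.0 and 59.4 to 436 and 413 CPM (2.89 ± 0.17 SE, adjusted p 3.7e-21). Nt5dc3 went from 146 and 133 to 17.3 and 16.6 CPM in Inh-Lamp5, with 32.3 and 6.66 in Inh-CGE and 34.8 and 8.25 in Inh-MGE. Of the 20 transcripts, 12 overlapped a symbol counted in 1 strain only, and reads of each strain had been aligned to a reference of its own. The part of the counting in these differences was not tested.

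Genes were also singled out after their values had been seen, because they differed in Inh-Lamp5 while the sums of both inhibitory neighbours differed less. Pdzrn4, a ubiquitin ligase gene, went from 521 and 496 CPM in B6 to 265 and 222 in D2 (log2 fold change -1.13 ± 0.14 SE, adjusted p 3.4e-09), with strain sums of 475 and 387 in Inh-CGE and 163 and 150 in Inh-MGE. Enox2 went from 128 and 156 to 74.0 and 55.5 CPM (-1.21 ± 0.19 SE, adjusted p 3.6e-06), with 32.0 and 38.9 in Inh-CGE and 37.7 and 40.6 in Inh-MGE. Both calls held under every alternative. Cpne4, a copine gene, went from 55.1 and 17.5 to 88.8 and 99.9 CPM (1.34 ± 0.25 SE, adjusted p 1.1e-04), with 550 and 665 in Inh-CGE and 94.4 and 97.3 in Inh-MGE. The B6 libraries of Cpne4 lay far apart, and the adjusted p was 0.110 without B6 library 3 and 0.176 by DESeq2. That these genes differed by strain more in Inh-Lamp5 than elsewhere was not tested.

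In snATAC-seq, 433 of 121989 peaks (0.355%) differed between the strains in the same test, 175 (0.143%) higher and 258 (0.211%) lower in D2. The number called was 242 without B6 library 2, 192 without B6 library 3, 229 without D2 library 2, 222 without D2 library 3 and 61 by DESeq2. Of the called peaks 55 lay at promoters, 113 in introns, 21 in exons and 231 between genes. The remaining 13 lay on unplaced scaffolds, where B6 had 1508 fragments over 43 peaks and D2 had 0. By the same naming rule at a mean of at least 5 CPM, 3 of the 5 peaks higher in D2 fell at the Sfi1 locus on chromosome 11. Of the 5 lower in D2, those at chrY:90797412-90799582 and chrY:90807059-90808047 came first. The log2 ratio of the strain sums at the Sfi1 peak chr11:3143955-3146269 was 4.69 in Inh-CGE and 4.32 in Inh-MGE. At chrY:90797412-90799582 it was -4.12 and -4.05, so neither difference was limited to Inh-Lamp5. Reads of each strain had been aligned to a reference of its own, and the part of this was not tested.

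Of the 25 called promoter peaks whose gene was also tested, 13 had a called transcript, beside 8.43% of all transcripts tested. Of these peaks 12 went the same way as the transcript. Of the 12, 4 lay at Sfi1, whose transcript is counted with each. Alad, which encodes the heme enzyme delta-aminolevulinate dehydratase, had a promoter peak at chr4:62519241-62520261 with 23.4 and 18.2 CPM in B6 and 67.5 and 59.5 in D2 (log2 fold change 1.58 ± 0.19 SE, adjusted p 4.9e-13). Its transcript went from 2.04 and 6.99 to 18.5 and 18 CPM (1.85 ± 0.53 SE, adjusted p 0.017). The peak kept its call under every alternative, and the transcript lost it without B6 library 2 (0.263), without D2 library 2 (0.255), without D2 library 3 (0.229) and by DESeq2 (0.809). Fggy, a carbohydrate kinase gene, had a promoter peak at chr4:95556791-95558977 that went from 21.4 and 21.0 to 1.78 and 3.72 CPM (-2.89 ± 0.40 SE, adjusted p 2.0e-09), and its transcript went from 29.6 and 35.0 to 7.40 and 1.39 CPM (-2.87 ± 0.48 SE, adjusted p 1.1e-05). At Btbd9 the promoter peak was higher in D2 and the transcript lower.

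Qpct, which encodes glutaminyl cyclase, fell in both readouts. Its promoter peak at chr17:79051643-79053345 went from 37.7 and 27.3 to 14.2 and 15.3 CPM (-1.14 ± 0.24 SE, adjusted p 0.0016), and its transcript from 73.5 and 42.8 to 8.64 and 9.71 CPM (-2.71 ± 0.36 SE, adjusted p 6.2e-08). The strain sums of the peak were 25.4 and 27.3 CPM in Inh-CGE and 21.9 and 19.2 in Inh-MGE, and those of the transcript 48.0 and 27.4 and 17.4 and 17.4. The peak lost its call without B6 library 2 (0.299), without D2 library 2 (0.055), without D2 library 3 (0.065) and by DESeq2 (1.00). Whether the difference was particular to Inh-Lamp5 was not tested.

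A pair of intronic peaks that differed between the strains is shown by sequence because the sums of the inhibitory neighbours differed less. The peak in Mindy4, a deubiquitinase gene, at chr6:55220577-55221224 went from 0.650 and 0.568 CPM in B6 to 10.7 and 11.1 in D2 (log2 fold change 4.0 ± 0.70 SE, adjusted p 1.2e-05), with 3.21 and 4.16 in Inh-CGE and 0.869 and 1.27 in Inh-MGE. Among all other cell types its highest value was 11.0 CPM, in the oligodendrocyte cluster NN-ODC of D2, near the D2 values of Inh-Lamp5. The Mindy4 peak kept its call without each library, and its adjusted p by DESeq2 was 0.331. The peak in Cpne4 at chr9:104960040-104962007 went from 2.60 and 5.12 to 17.2 and 14.9 CPM (1.97 ± 0.41 SE, adjusted p 0.0013), with 6.19 and 7.48 in Inh-CGE and 7.05 and 7.72 in Inh-MGE. Its call was lost without B6 library 2 (0.156) and by DESeq2 (0.656). The middle 300 bases follow on the plus strand of the B6 reference (build mm10), and neither holds any of the 3 motifs named above, so no letter is in capitals. The D2 sequence of these regions was not used here.
Mindy4 peak, chr6:55220750-55221049: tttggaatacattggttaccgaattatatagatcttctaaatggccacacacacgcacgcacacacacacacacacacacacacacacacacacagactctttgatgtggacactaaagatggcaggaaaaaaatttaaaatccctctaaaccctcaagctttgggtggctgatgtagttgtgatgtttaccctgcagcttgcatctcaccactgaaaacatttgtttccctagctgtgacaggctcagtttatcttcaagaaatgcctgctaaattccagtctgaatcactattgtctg
Cpne4 peak, chr9:104960873-104961172: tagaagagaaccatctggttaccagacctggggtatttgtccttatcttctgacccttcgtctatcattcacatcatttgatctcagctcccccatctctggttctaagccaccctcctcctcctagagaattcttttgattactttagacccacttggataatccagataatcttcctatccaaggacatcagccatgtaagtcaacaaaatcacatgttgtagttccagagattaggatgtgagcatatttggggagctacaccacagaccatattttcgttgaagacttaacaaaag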

How the data were processed

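Nuclei of ventral hippocampus were profiled by snRNA-seq and snATAC-seq. Per the labels and the study's methods, the authors aligned reads with Cell Ranger 6.0.2 (introns kept) and Cell Ranger ATAC 2.0.0, to mm10 for B6 and to mm10 carrying D2 variants for D2, removed doublets with DoubletFinder, clustered nuclei with Seurat 4.0.5 and transferred RNA labels to snATAC-seq. They deposited raw counts summed per cell type and library, and these counts were used as deposited. Cell barcodes were not used here. Library columns are numbered 2 and 3 where the labels number samples 1 and 2, so columns were placed by strain only.

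Of 33902 symbols, 24691 were counted in both strains, 960 in B6 only and 8204 in D2 only. Tests and CPM used the shared symbols, which held 96.4% to 99.2% of Inh-Lamp5 counts. D2 was compared with B6 in the 4 libraries by edgeR 4.0.16 (TMM, quasi-likelihood test, Benjamini-Hochberg adjustment, threshold 0.05) in R 4.3.3, with DESeq2 1.42.0 as an alternative. On simulated counts with 200 changed transcripts, edgeR recovered 75% at 2-fold and 99% at 4-fold, and 2.79% of its calls were false. Every simulated transcript had the same spread, and changes were placed only in the better counted ones. Recovery may thus be lower in the real counts. The shallowest Inh-Lamp5 library held 747867 RNA counts, where 3 counts were 4.16 CPM. Peaks were placed on GENCODE vM21 and promoters taken from RefSeq GRCm38.p6 (1000 bases before to 100 after a start counted as promoter in placing peaks). Motifs were searched on both strands.

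Named genes were drawn from 23 lists and from the 20 symbols highest and 10 lowest in Inh-Lamp5. Others were among the 10 genes and 5 peaks per direction that differed most by strain under the filters given in the text. Members and lists were chosen with earlier results of these data known. Alternatives changed the tool, normalization, count filter, symbols, overlapping genes and the libraries. The authors' DNA methylation samples were not analysed here. Some genes of the lists are counted but not reported here by name.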

Additional observations from a re-analysis of the deposited data

How the results depend on the processing

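The 825 transcripts called became 202 by DESeq2 (52 higher, 150 lower, of 20092 tested), 390 of 7135 without genes overlapping on the same strand, and 458 of 7436 without genes overlapping a symbol counted in 1 strain, an alternative chosen after seeing the data. Leaving out 1 library gave 451 to 633. The 433 peaks became 61 by DESeq2 and 192 to 242 without 1 library. With all symbols, 1226 transcripts were called, 656 higher and 570 lower. No direction reversed where a named strain difference was called in the main test or in the alternative. Changes of sign in differences called in neither were not counted. Over the named called transcripts, 629 comparisons with an alternative kept the call and 132 lost it, and for peaks these were 148 and 49. The library numbers did not pair the samples (correlation of same-numbered deviations -0.041 in snRNA-seq and 0.002 in snATAC-seq), and with the number as a replicate block 759 transcripts and 375 peaks were called. The number of symbols whose lowest Inh-Lamp5 library lay above every other cell type was 123, and 105 to 141 in the alternatives. Depth limits low genes: with 88 to 142 nuclei per library, levels of a few CPM rest on a few counts. In simulated peaks of equal spread edgeR recovered 51% of changed ones, so peaks not called may still differ, and 7.27% of its calls were false.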

Other observations

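Among genes at loci known to differ between these strains, the promoter peak of Hdhd3, a neighbour of Alad on chromosome 4, went from 18.8 and 14.8 CPM in B6 to 65.7 and 61.3 in D2 (log2 fold change 1.89, adjusted p 2.7e-17, edgeR). Inh-CGE had 24.1 and 63.9 CPM at this peak, a similar change of level. Of 6 such genes tested as transcripts in Inh-Lamp5, Alad was higher and Mpdz lower in D2, beside 3.16% and 5.27% of all transcripts. Neither was called by DESeq2 or without D2 library 3. Alad was also lost without B6 library 2 (0.263) and without D2 library 2 (0.255), and Mpdz without B6 library 3 (0.369).

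Among genes of nitric oxide and cyclic GMP signalling, Gucy1a1, a subunit of the enzyme that nitric oxide activates, was low in Inh-Lamp5 at 4.94 to 12.5 CPM, against 39.0 and 37.6 in Inh-CGE and 26.4 and 18.9 in Inh-MGE. Of 7 genes of that list tested by strain, 1 was higher in D2, beside 3.16% of all transcripts. It was Nos1ap, which encodes an adaptor of the synthase (log2 fold change 0.53, adjusted p 0.023, edgeR). The call was lost without B6 library 2 (0.090), B6 library 3 (0.184), D2 library 2 (0.052) and D2 library 3 (0.283), by DESeq2 (0.729) and without genes overlapping a symbol of 1 strain (0.065).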
